A study of Danio rerio with 10 samples.

Results

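Kidney cells were the cells that the authors had annotated as kidney in adult zebrafish whole-kidney scRNA-Seq, as opposed to the blood, immune and endothelial cells of the same organ. They were chosen by this cell type label alone, and numbered 1116 of 101598 cells (1.10%). Whole kidneys had been profiled by droplet-based scRNA-Seq from WT fish of the AB strain, from *cebp1* mutants (homozygous for the *cebp1* smu1 allele) and from *cebpb* mutants (homozygous for the *cebpb* szy7 allele). All were 3-month-old females, with 3 fish per genotype and 1 library per fish, and each mutant was represented by a single allele. The kidneys had been dissociated by pipetting, and the part of this step in how many tubule cells were recovered was not tested. A further library of eosinophils sorted from a pool of *Tg(eslec:eGFP)* kidneys was not used. C/EBP factors act in myeloid differentiation, and the study used these mutants to examine the eosinophil lineage.

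The zebrafish kidney combines an excretory organ with the main site of adult blood formation. Nephrons, made of a filtering glomerulus and a segmented tubule, run through the haematopoietic marrow. Tubule cells recover salts, glucose and phosphate from the filtrate by transporters that depend on the sodium gradient set by the Na/K-ATPase. Segments with heavy transport are rich in mitochondria. Genes that mark the tubule include *cdh17*, a cadherin of tubule and duct epithelium, *slc20a1a*, a phosphate transporter, and *pax2a*, a transcription factor of the nephron lineage. The deposited table held totals and labels for each cell, but no gene of its own. None of the 3 markers could therefore be read, and the label was not checked against them, nor could tubule cells be separated from other kidney cells. Each cell had a cell type, a total of UMIs (unique molecular identifiers, each standing for a captured transcript) and a number of detected genes. Its mitochondrial percentage was the share of its UMIs that came from mitochondrial transcripts.

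The 9 libraries held 7918 to 14440 cells, with median UMIs per cell of 1756 to 3208.5. They fell into 2 classes by the median mitochondrial percentage of all their cells. Library 1 of each genotype had a median of 0.884 to 1.69% (low class), and libraries 2 and 3 of each genotype had 3.39 to 9.47% (high class). The class thus coincided with the library number, and the class and the number cannot be told apart. Of the barcode sequences, 1.22% occurred in more than 1 library. Among kidney cells, 22 (1.97%) shared a barcode with another library, against 2.43% of the other cells. Annotation and filters were those of the authors, who had kept cells over 1000 UMIs, over 200 genes and under 15% mitochondrial UMIs. Kidney cells spanned 221 to 3002 genes and 0.168 to 14.96% mitochondrial UMIs, and their UMIs ran from just over 1000 to 13322. They thus reached the limits on UMIs and on mitochondrial percentage.

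Kidney cells were a small share of each library, and by number ranked 2 to 7 from the fewest among its 14 or 15 types. In WT fish they made up 87 of 8262 cells in library 1, which is 1.05% (95% Clopper-Pearson interval 0.844 to 1.30%). The WT libraries 2 and 3 held 42 of 12400 cells (0.339%, 0.244 to 0.458%) and 49 of 13095 cells (0.374%, 0.277 to 0.494%). In WT, library 1 thus stood apart from the other 2, whose intervals overlapped. The *cebp1* mutant libraries held 168 of 12218 cells (1.38%, 1.18 to 1.60%), 91 of 12384 (0.735%, 0.592 to 0.901%) and 39 of 10555 (0.369%, 0.263 to 0.505%). Here all 3 intervals were separate. In the *cebpb* mutants, 506 of 14440 cells in library 1 were kidney cells, or 3.50% (3.21 to 3.82%). The *cebpb* mutant libraries 2 and 3 held 82 of 10326 (0.794%, 0.632 to 0.985%) and 52 of 7918 (0.657%, 0.491 to 0.860%). Library 1 of the *cebpb* mutants alone contributed 506 of the 1116 kidney cells, so statistics pooled over cells are weighted towards it. The intervals cover counting error only.

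**Figure D1:**
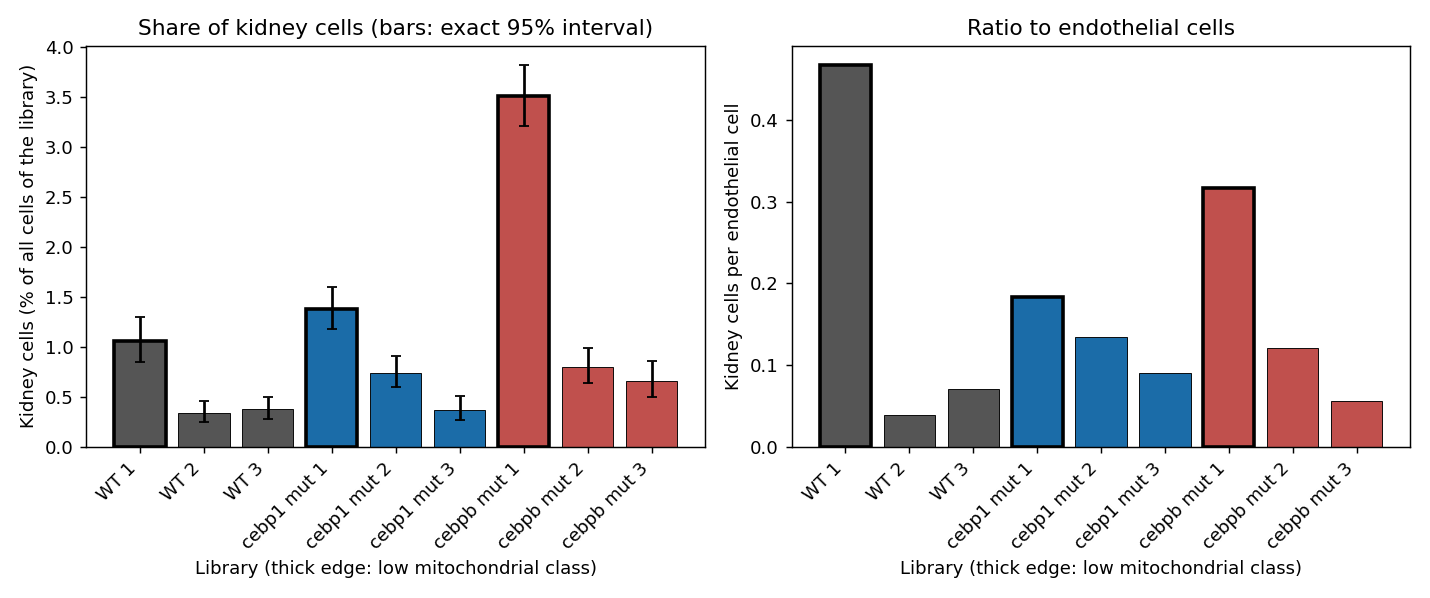
Kidney cells as a percentage of all cells (left, error bars are exact 95% Clopper-Pearson intervals) and per endothelial cell (right) in each of the 9 libraries, coloured by genotype, with a thick edge for the 3 libraries of the low mitochondrial class. In each genotype library 1 was the highest, with shares of 1.05, 1.38 and 3.50% against 0.339 to 0.794% in the other 6.

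No difference in the share of kidney cells between genotypes passed the test. WT fish had a mean share of 0.589% ± 0.403 (SD, n = 3). *cebp1* mutants had 0.826% ± 0.509, *cebpb* mutants had 1.65% ± 1.61, and the ranges of the 3 genotypes overlapped. Against WT, the log2 fold change was 0.50 in *cebp1* mutants (SE 0.79, 95% interval -1.28 to 2.27) and 1.5 in *cebpb* mutants (SE 0.80, -0.30 to 3.30). The adjusted p-values were 0.826 and 0.551 (edgeR quasi-likelihood test over 15 cell types, Benjamini-Hochberg), and an exact two-sided permutation of the libraries gave p = 0.6 and 0.3, where 3 against 3 libraries cannot go below 0.1. *cebp1* and *cebpb* mutants differed by -1.0 (SE 0.79, -2.77 to 0.77, adjusted p = 0.293, exact p = 0.6). Of all 15 types, 13.3% were called in *cebp1* mutants against WT, 6.67% in *cebpb* mutants against WT and 13.3% between the mutants. The intervals were wide, and for *cebpb* mutants against WT an increase of several-fold lay within them. Leaving out 1 library could move these values and, for *cebp1* mutants against WT and between the mutants, change their sign. The *cebpb* mutant difference was 0.31 without their library 1 and 2.21 without library 1 of WT. That of the *cebp1* mutants was -0.083 without their library 1 and 1.21 without library 1 of WT, and the difference between the mutants was 0.19 without library 1 of the *cebpb* mutants. None of these passed the test. Within the 6 libraries of the high class, the log2 fold changes against WT were 0.63 in *cebp1* mutants and 1.02 in *cebpb* mutants (adjusted p = 0.404 and 0.311). The main fit held genotype alone, so a difference between library 1 and the other libraries of a genotype counted as spread. For *cebpb* mutants against WT, adjusted p-values over 20 alternative settings (edgeR or DESeq2) ran from 0.0700 to 0.891, and none passed. A block for the library number was among these settings.

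The share of kidney cells differed between the mitochondrial classes. Library 1 held a larger share of kidney cells than libraries 2 and 3 in every genotype. As percentages of all cells, the 3 shares in the low class (1.05 to 3.50%) did not overlap the 6 in the high class (0.339 to 0.794%). The ratio of library 1 to the mean of the others was 2.95 for WT, 2.49 for *cebp1* and 4.83 for *cebpb* mutants. The total includes erythrocytes. They were 557 of 8262 cells in WT library 1, against 4855 of 12400 and 5997 of 13095 in libraries 2 and 3. In *cebp1* mutants they were 5035 of 12218, 3727 of 12384 and 2027 of 10555 cells in libraries 1, 2 and 3. In *cebpb* mutants they were 2926 of 14440, 5244 of 10326 and 1904 of 7918. Without erythrocytes in the totals, the share in library 1 of WT lies below that in library 2 of the *cebpb* mutants. The classes then overlap, while library 1 stays the highest of each genotype. Atypical cells also count in the total, at 26, 2193 and 2053 cells in libraries 1, 2 and 3 of the *cebp1* mutants. The ratios were not taken without erythrocytes or atypical cells. In a fit with genotype and class, added after the data had been seen, kidney cells were higher in the low class by 1.73 on the log2 scale (SE 0.38, 95% interval 0.93 to 2.54, edgeR adjusted p = 0.0032). Kidney cells and atypical cells were the 13.3% of types called in that fit. Over 13 alternative settings of this fit the difference was 1.44 to 2.26, and 12 passed, the setting without erythrocytes among them. Without library 1 of the *cebpb* mutants it was 1.44 and no longer passed (edgeR adjusted p = 0.0751). Since the class was read from the same cells as the shares, and coincides with library number, what sets it was not tested.

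Endothelial cells, which line the vessels and sinuses of the kidney, are likewise not blood cells and gave a second denominator. In WT, there were 0.468, 0.0383 and 0.0705 kidney cells per endothelial cell in libraries 1, 2 and 3. The ratio was 0.184, 0.135 and 0.0901 in the *cebp1* mutants, and 0.317, 0.121 and 0.0556 in the *cebpb* mutants. The mean was 0.192 ± 0.239 in WT (SD, n = 3), 0.136 ± 0.0468 in *cebp1* and 0.164 ± 0.136 in *cebpb* mutants, and the ranges overlapped. The WT mean rested on library 1, since its libraries 2 and 3 were among the 3 lowest of the 9. On the log2 ratio, *cebp1* and *cebpb* mutants differed from WT by 0.27 (95% interval -1.90 to 2.44) and 0.25 (-1.92 to 2.41), and from each other by 0.024 (-2.14 to 2.19). Adjusted p-values by limma over 14 types were 0.963, 0.870 and 0.981, with 7.14% of the types called in each comparison. The exact permutation p-values were 0.9, 0.9 and 1. Without library 1 of WT the differences from WT were 1.32 and 1.30, and without library 2 of WT they were -0.48 and -0.50, so their direction turned on single libraries.

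Library 1 of each genotype again had the highest ratio, and the low class (0.184 to 0.468) did not overlap the high class (0.0383 to 0.135). The log2 difference between the classes was 1.94 (0.47 to 3.42), which did not pass the test over 14 types (limma adjusted p = 0.0734, 7.14% called). Its SE of 0.74 was the same for all 14 types, so the interval does not measure the spread of the kidney ratio alone. The difference passed without library 1 of the *cebp1* mutants (2.55, adjusted p = 0.0121) and without their library 3 (1.98, adjusted p = 0.0426). Leaving out any of the other 7 libraries gave 1.33 to 2.13 and did not pass, with adjusted p-values up to 0.243. Over the 9 libraries, the share of kidney cells and that of endothelial cells had Pearson's r = 0.425 (permutation p = 0.283, adjusted over 2 relations 0.565) and Spearman's rho = 0.133 (permutation p = 0.744, adjusted 1). Without the 2 libraries farthest from the median r was -0.081, and within the 6 libraries of the high class r was 0.190. A relation between the 2 shares was thus not detectable over these libraries. Within the high class, the kidney share and the median mitochondrial percentage of the library had r = 0.200 (permutation p = 0.879, adjusted 0.879) and rho = -0.029 (permutation p = 1, adjusted 1), with r = -0.615 when the 2 farthest libraries were left out. No r over all 9 libraries was taken for this pair, because the classes form separate clusters.

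Kidney cells had a higher mitochondrial percentage than the other cells of their own library in all 9 libraries. In WT the median was 2.93, 6.94 and 9.62% in libraries 1, 2 and 3, against 0.876, 4.77 and 5.11% in all other cells. The *cebp1* mutant libraries had 5.21, 6.76 and 7.57% in kidney cells against 1.62, 3.55 and 3.38% in the others. In the *cebpb* mutant libraries the kidney cell medians were 6.98, 7.15 and 11.4%, and those of the others were 1.65, 4.68 and 9.45%. The difference was 3.28 ± 1.22 percentage points (SD, n = 9 libraries), ranged from 1.96 to 5.33, and was higher in 9 of 9 (exact sign-flip permutation p = 0.00391, adjusted p = 0.0156 over 8 comparisons). A two-sided test of this kind on 9 libraries cannot go below 0.00391. Over 16 alternative settings the difference was 2.06 to 3.62 points, and 15 passed. Leaving out erythrocytes and weighting the other types equally were among these settings.

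The same held against endothelial cells. Their medians were 1.58, 5.94 and 6.44% for WT, 2.50, 5.38 and 5.70% in *cebp1* mutants, and 2.17, 4.95 and 9.0% in *cebpb* mutants. Kidney cells were above them by 2.32 ± 1.17 percentage points (SD, n = 9), with a range of 1.0 to 4.81 and the same direction in 9 of 9 (exact sign-flip permutation p = 0.00391, adjusted p = 0.0156). When only cells of 1000 to 2000 UMIs were taken, both differences still passed the test, at 2.48 and 2.02 points (adjusted p = 0.0156 each). Against endothelial cells, 14 alternative settings gave 1.10 to 2.49 points, and 13 passed. Among kidney cells of a library, UMIs and mitochondrial percentage had a Spearman's rho of -0.355 to 0.189, with both signs present. More mitochondrial transcripts per cell and fewer cytoplasmic ones give the same percentage and cannot be told apart here.

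**Figure D2:**
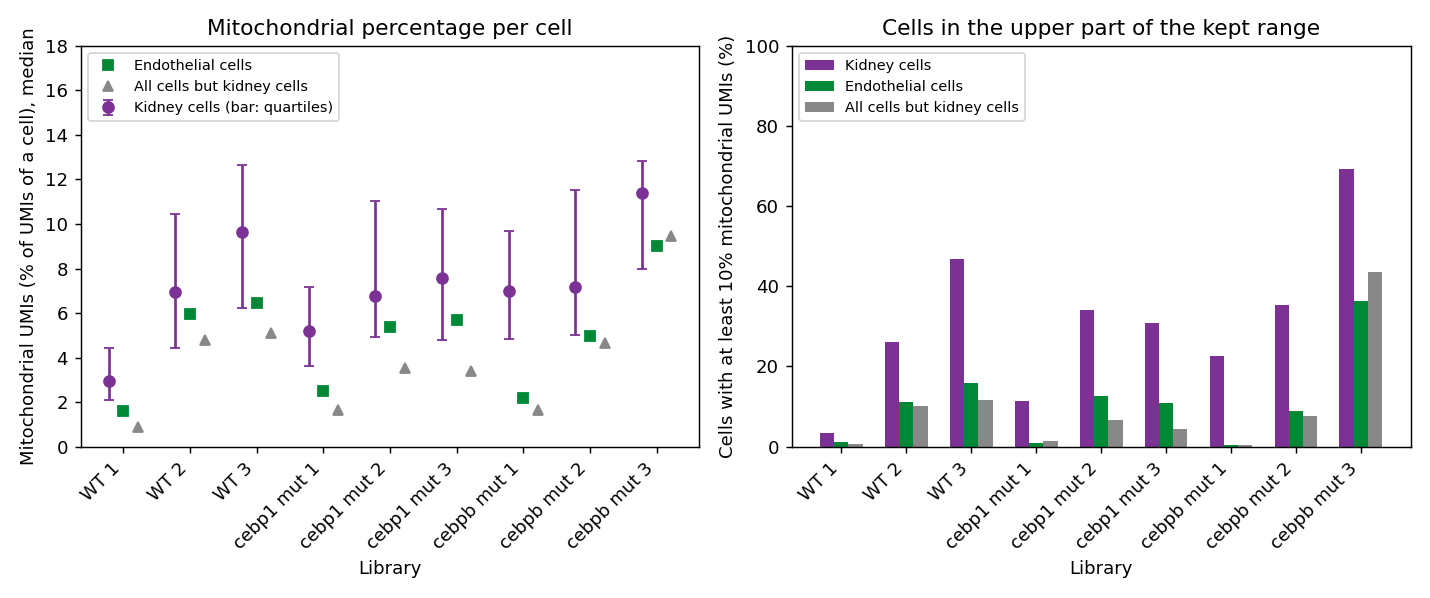
Left, median mitochondrial percentage per cell in kidney cells (circles, bars from the lower to the upper quartile), endothelial cells (squares) and all cells but kidney cells (triangles) in each library; right, the percentage of cells in each group with at least 10% mitochondrial UMIs. Kidney cells were the highest of the 3 groups in all 9 libraries in both panels, from 2.93 to 11.4% on the left and from 3.45 to 69.2% on the right.

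The gap was large relative to the rest of the library in the low class. The kidney median was 3.21 to 4.23 times that of the other cells in the 3 libraries of the low class, and 1.21 to 2.24 times in the 6 of the high class. In percentage points the classes overlapped, with 2.05 to 5.33 in the low and 1.96 to 4.51 in the high class. Against endothelial cells the ratio was 1.86 to 3.21 in the low class and 1.17 to 1.49 in the high class. The difference between the classes was not tested. Cells at 15% mitochondrial UMIs or more had been removed, and the part of this limit in the ratios was not tested. In the high class the median of the other cells ran from 3.38 to 9.45%, the latter in library 3 of the *cebpb* mutants. Among the types with at least 20 cells in a library, kidney cells ranked first in the 3 libraries of the low class, second in 4 and in rank 3 in 2. Eosinophils stood above them in 5 of the 6 libraries of the high class, neutrophils in library 2 of WT, and T lymphocytes in libraries 2 and 3 of the *cebpb* mutants. In library 3 of WT the medians of eosinophils and kidney cells were 9.64 and 9.62%, and in library 3 of the *cebpb* mutants those of T lymphocytes and kidney cells were 11.43 and 11.41%, so these neighbours were close. Among cells of 1000 to 2000 UMIs (types with at least 10 such cells), kidney cells ranked first in 1 library, second in 3, in rank 3 in 2, and in ranks 4, 5 and 7 in 1 each. In library 1 of WT they then stood at 3.44%, below erythroid progenitors at 9.04%.

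**Figure D3:**
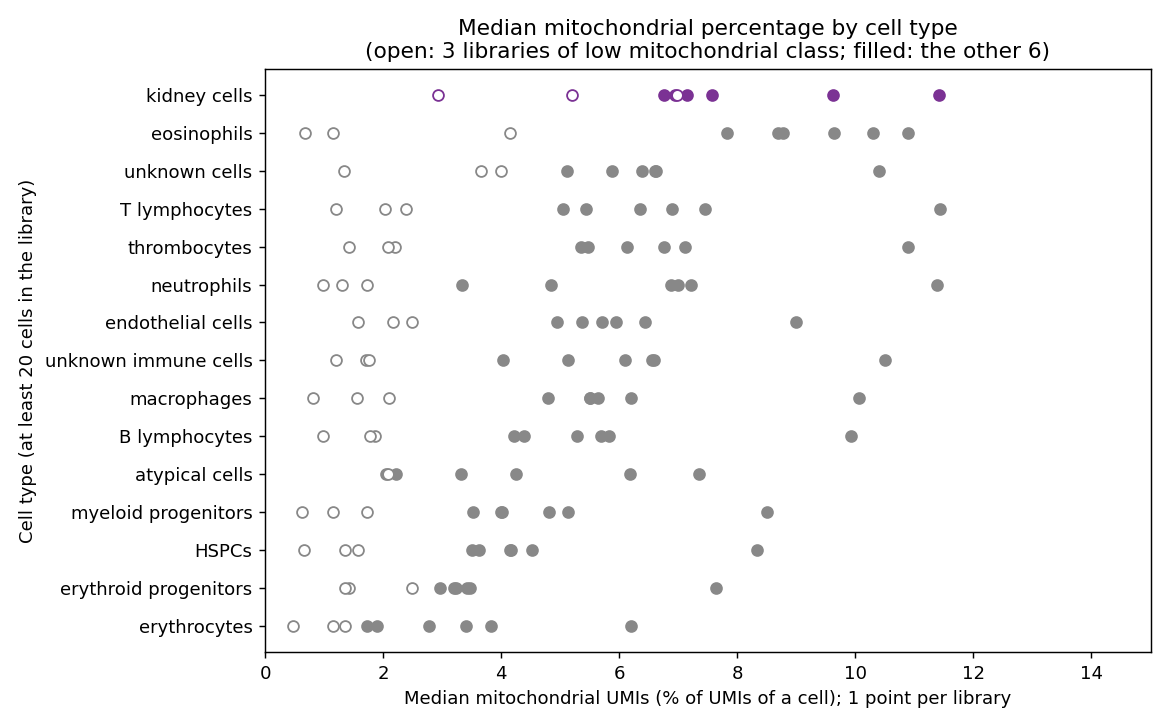
Median mitochondrial percentage of each cell type in each library (1 point per library, types with at least 20 cells in it), with open points for the 3 libraries of the low mitochondrial class and filled points for the other 6, ordered by the mean over libraries. Kidney cells (purple) have medians of 2.93 to 11.4% and the highest mean of the 15 types.

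Kidney cells lay more often than the other cells in the upper part of the mitochondrial range kept by the filter. In WT libraries 1, 2 and 3, 3.45, 26.2 and 46.9% of them had at least 10% mitochondrial UMIs, against 0.746, 10.2 and 11.6% of all other cells. The values were 11.3, 34.1 and 30.8% in *cebp1* mutants (others 1.46, 6.74 and 4.43%), and 22.5, 35.4 and 69.2% in *cebpb* mutants (others 0.352, 7.55 and 43.7%). The share was thus higher in kidney cells in each library, and its highest value was in library 3 of the *cebpb* mutants, where the other cells were also at their highest. Pooled over all libraries, 34 kidney cells (3.05%) and 1.20% of the other cells lay between 14% and the limit of 15%. Library 1 of the *cebpb* mutants weighs more in the first of these shares than in the second. Cells above the limit had been removed, so the number of kidney cells lost there cannot be given from these data. In the share of kidney cells, this filter and the tissue cannot be told apart.

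Kidney cells had fewer median UMIs than all other cells in most libraries. Among the 14 or 15 types with at least 20 cells in a library, their rank from the highest was 7 to 14. In libraries 1, 2 and 3 their median UMIs were 2153, 1396.5 and 1456 for WT, 1650, 1588 and 1944 for *cebp1* mutants, and 2186, 1262 and 1780.5 for *cebpb* mutants. The medians of all other cells were 3237, 2341 and 2218, then 2536.5, 2132 and 2936, then 2151, 1761 and 2244. Kidney cells were lower in 8 of 9 libraries, with library 1 of the *cebpb* mutants as the exception. The log2 difference was -0.49 ± 0.23 (SD, n = 9, exact sign-flip permutation p = 0.00781, adjusted p = 0.0156). Endothelial cells, with medians of 1435 to 2560.5 UMIs, were close to kidney cells, with a log2 difference of -0.045 ± 0.26 (SD, n = 9, kidney cells higher in 3 of 9, exact permutation adjusted p = 0.652). At or below 1500 UMIs lay 28.7 to 72.0% of the kidney cells of a library, against 15.2 to 40.4% of the other cells. In endothelial cells this share was 25.3 to 53.5%, which overlaps that of kidney cells. Kidney cells contributed 0.170 to 2.76% of the UMIs of a library.

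The number of detected genes depended on what kidney cells were compared with. The kidney cell median was 937, 358.5 and 359 genes for WT, 471, 552 and 724 in *cebp1* mutants, and 756, 360.5 and 416 in *cebpb* mutants. All other cells had 914, 450 and 383 genes for WT, 400, 556 and 779 in *cebp1* mutants, and 608, 370 and 511 in *cebpb* mutants. The log2 difference was -0.032 ± 0.21 (SD, n = 9, kidney cells higher in 3 of 9, exact permutation adjusted p = 0.652). Erythrocytes, which carry few genes beside globins, are among those other cells, and without them the difference was -0.38 (adjusted p = 0.0234). Against endothelial cells the difference was -0.17 ± 0.35 (SD, n = 9, lower in 7 of 9, exact permutation adjusted p = 0.25). It passed when only cells of at least 2000 UMIs were taken (-0.26, adjusted p = 0.0293).

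The comparison was repeated in cells of 1000 to 2000 UMIs, where the median UMIs were 1185.5 to 1411.5 in kidney cells and 1280.5 to 1426 in all other cells. Kidney cells of this window had 569, 338.5 and 333 genes for WT, 405, 485 and 649.5 in *cebp1* mutants, and 507.5, 347 and 367.5 in *cebpb* mutants. They were above all other cells of the same window in 8 of 9 libraries, by 0.14 ± 0.11 on the log2 scale (SD, n = 9, exact permutation adjusted p = 0.0156). This direction was lost without erythrocytes (-0.046, adjusted p = 0.406), and was 0.031 (adjusted p = 0.518) when each other type had equal weight. Against endothelial cells of the window it was -0.098 ± 0.19 (SD, n = 9, exact permutation adjusted p = 0.25). Genes rose with UMIs in the kidney cells of each library, with a Spearman's rho of 0.693 to 0.970 across cells.

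**Figure D4:**
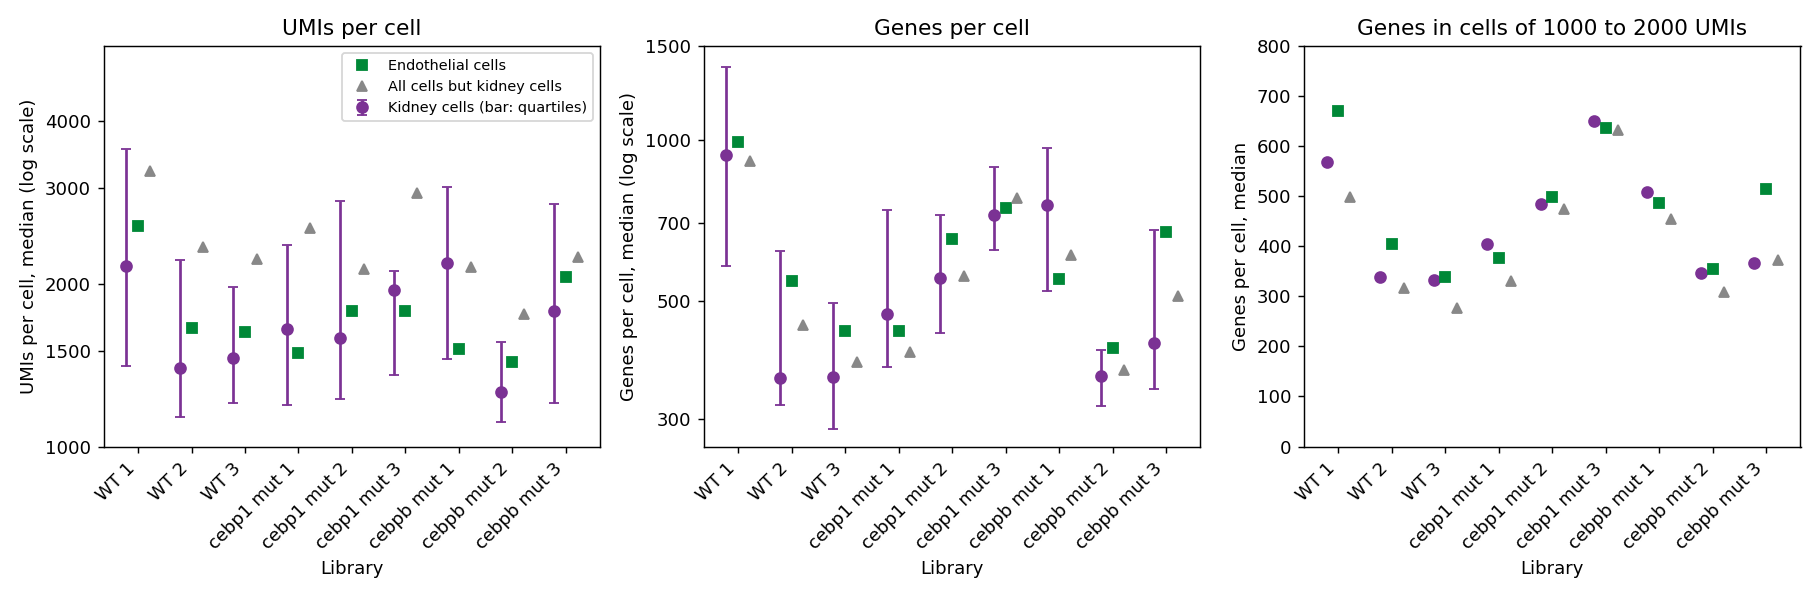
Median UMIs per cell (left, log scale), median genes per cell (middle, log scale) and median genes in cells of 1000 to 2000 UMIs (right) for kidney cells (circles, bars from the lower to the upper quartile), endothelial cells (squares) and all cells but kidney cells (triangles) in each library. Kidney cells lie below all other cells in UMIs in 8 of 9 libraries, and genes in the window range from 333 to 649.5.

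No difference between genotypes in the median UMIs or mitochondrial percentage of kidney cells passed the test on log2 medians of 14 cell types. For median UMIs the log2 difference from WT was 0.073 (95% interval -0.48 to 0.63) in *cebp1* mutants and 0.055 (-0.50 to 0.61) in *cebpb* mutants, and 0.017 (-0.54 to 0.57) between the mutants. Adjusted p-values by limma were 0.833, 0.853 and 0.945, and exact permutation p-values were 0.7, 0.9 and 1. None of the 3 intervals reached beyond 0.63 in either direction. For the mitochondrial percentage the differences were 0.15 (-1.75 to 2.05), 0.51 (-1.38 to 2.41) and -0.37 (-2.26 to 1.53), with limma adjusted p-values of 0.987, 0.829 and 0.848 and exact permutation p-values of 0.9, 0.4 and 0.4. These intervals span several-fold changes. Their SE of 0.95 was the same for all 14 types, so it does not measure the spread of kidney cells alone. In the 6 libraries of the high class the SE was 0.36 and the differences were -0.19, 0.14 and -0.34. None passed there (limma adjusted p = 0.893, 0.861 and 0.408, with 1, 0 and 3 of 15 types called). Over all 9 libraries, 0.0% of the 14 types were called in either mutant against WT for both measures. Between the mutants 14.3% were called for UMIs and 0.0% for the mitochondrial percentage.

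For median genes per kidney cell, *cebp1* and *cebpb* mutants differed from WT by 0.21 (-0.62 to 1.04) and -0.030 (-0.86 to 0.80) on the log2 scale, and from each other by 0.24 (-0.59 to 1.07). Adjusted p-values by limma were 0.998, 0.986 and 0.835, exact permutation p-values were 0.6, 1 and 0.6, and 0.0, 0.0 and 7.14% of the 14 types were called. In the 6 libraries of the high class the comparison of *cebp1* mutants with WT passed. There the kidney cell medians were 552 and 724 genes in the mutants and 358.5 and 359 in WT, a log2 difference of 0.82 (SE 0.20, 0.33 to 1.30, limma adjusted p = 0.0282). With an exact permutation of these 4 libraries p was 0.333, the smallest that 2 against 2 libraries allow. Kidney cells, erythrocytes and atypical cells were the 3 of 15 types called (20%). In the same 4 libraries all other cells had 556 and 779 genes in the mutants and 450 and 383 in WT, and at 1000 to 2000 UMIs kidney cells had 485 and 649.5 against 338.5 and 333, and all other cells 474 and 632 against 316 and 276. The non-kidney cells of these libraries were thus shifted in the same direction, and their part in the result was not tested.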

How the data were processed

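The submitters' processing notes name Cell Ranger, Seurat and the GRCz11 build. The authors deposited UMI counts and detected genes per cell as whole counts without normalization, and the mitochondrial content as a percent of the UMIs of the cell. Cell types were taken from the authors' annotation, and doublets had been filtered by them, so no caller was run. Genotype came from the genotype label in the column named tissue. The library number came from the suffix of the cell barcode, matched by its cell total to those listed in the methods. The table held no gene columns, so no gene was tested.

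Numbers of cells of 15 types were tested by the quasi-likelihood test of edgeR 4.0.16, with an untrended dispersion and the total of the library as offset. Log2 ratios to endothelial cells (pseudocount 0.5) and log2 medians of 14 types (each library holding 20 or more of their cells) were tested with limma 3.58.1, in R 4.3.3. All 9 libraries shared 1 estimate of the spread. Kidney cells were compared with other cells of the same library by an exact two-sided sign-flip permutation test over 9 libraries. The Benjamini-Hochberg method was used for adjustment, and the threshold was 0.05. The low mitochondrial class had a library median under 2%. DESeq2 1.42.0 was an alternative. Tables were made with Python 3.11.15, pandas 2.3.3 and SciPy 1.17.1. The tests were run on simulated data first.

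Each library was 1 fish, and its spread therefore includes both the fish and the preparation. Same-numbered libraries deviated together from their genotype means over the 15 types (r 0.278 to 0.846, median 0.620), so pairing by number is possible. Libraries of different numbers were not compared in this way. Without atypical cells the lowest r was -0.552 and the median 0.241. The main fits and permutations between genotypes were not paired, and a block for the library number was an alternative setting. The 3 libraries per genotype and the spread between them limit the precision, and each library held 39 to 506 kidney cells. Each cell type comparison of kidney cells was reported, passed or not. The members, lists and tests were chosen with earlier results of these data known.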

Additional observations from a re-analysis of the deposited data

How the results depend on the processing

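Of 383 alternative values for 27 results, 332 kept their direction and their side of the threshold. In 39 the sign changed, and 38 of these belonged to results that had not passed the test. None of the 39 passed in the alternative, and 26 of them came from leaving out a library. Of 246 alternative values for 15 comparisons between genotypes, 1 was called, the median genes of *cebp1* mutants against WT in the 6 libraries of the high class (0.82, adjusted p = 0.0282). With the replicate block, the *cebpb* mutant share differed from WT by 1.27 (adjusted p = 0.103), and the block changed no call between genotypes for kidney cells. In only the 6 libraries of the high class, where the smallest unadjusted p is 0.03125, the differences from all other cells were -0.53 for UMIs (adjusted p = 0.05), 3.09 points for mitochondrial percentage (0.05) and 0.10 for genes at 1000 to 2000 UMIs (0.0714), and that from endothelial cells was 2.01 points (0.05). None of these 4 passed there, and this smaller number of libraries limits them. Against all other cells, genes gave -0.38 without erythrocytes and -0.30 with other types weighted equally, both now passing, and genes at 1000 to 2000 UMIs gave -0.046 (sign changed) and 0.031, neither passing. Against endothelial cells, genes in cells of at least 2000 UMIs gave -0.26. The equal weighting, the class fits and the window of UMIs for mitochondrial percentage were chosen after seeing the data.

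The other changes of sign were as follows. Cells of at least 2000 UMIs gave 0.040 for genes against all other cells, 0.016 for UMIs against endothelial cells and -0.0079 for the ratio to endothelial cells between the mutants. Cells under 10% mitochondrial UMIs gave -0.060 for that ratio in *cebpb* mutants against WT, and HSPCs as denominator gave -1.32 between the mutants. Means of log2 UMIs gave -0.035 and -0.031 for *cebp1* and *cebpb* mutants against WT and -0.0041 between them. In the 6 libraries of the high class the mitochondrial percentage of *cebp1* mutants against WT was -0.19 and the genes of *cebpb* mutants against WT were 0.11. Without the 2 farthest libraries the r of kidney share with endothelial share was -0.081 and with mitochondrial percentage -0.615.

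Leaving out each library in turn gave 1.44 to 1.94 for the class difference in share and 1.33 to 2.55 for that in the ratio to endothelial cells, and -0.075 to 0.0053 for genes against all other cells. For *cebp1* mutants against WT it gave -0.083 to 1.21 for the share, -0.48 to 1.32 for the ratio, -0.041 to 0.27 for UMIs, -0.017 to 0.68 for genes and -0.34 to 0.51 for mitochondrial percentage. For *cebpb* mutants against WT it gave 0.31 to 2.21 for the share, -0.50 to 1.30 for the ratio, -0.13 to 0.27 for UMIs and -0.35 to 0.43 for genes. Between the mutants it gave -1.58 to 0.19 for the share, -0.58 to 0.67 for the ratio and -0.20 to 0.20 for UMIs. The causes of these changes were not tested. Medians in cells of at least 2000 UMIs or under 10% mitochondrial UMIs could not be given between genotypes, since some library then held fewer than 20 kidney cells.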
